A study of Homo sapiens with 18 samples.

Results

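TOM1, DCLK2, PIAS4, PHB2, CALM2 and ZNF316 are 6 protein-coding genes that each held a peak of MYC-bound RNA for all 3 MYC alleles of the study. They were selected on those peaks: a gene qualified when at least 1 base of its annotated span lay under a peak in each of the 3 lists, and genes of housekeeping families were left out. Of 59698 annotated genes, 21 had a peak in all 3 lists, and these 6 are among them. Because the peaks chose the genes, the values at these places are given as a description with no test.

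RNA bound to MYC was mapped by eCLIP, in which ultraviolet light links a protein to RNA in living cells and the RNA that precipitates with the protein is sequenced. It was done in U2OS cells, which derive from a human osteosarcoma, lack their own MYC here and carry a FLAG-tagged MYC transgene, either the mutant 3A, the mutant 7A or the wild type, under a doxycycline switch. Neither the residues changed in the mutants nor the clonality of the lines is given in the labels. For each allele 2 FLAG immunoprecipitates and 1 input were made from cells given doxycycline (1 µg/mL for 24 h) and as many from cells without it, 18 libraries altogether. The lists analysed here, 1 per allele, are named for the doxycycline-treated immunoprecipitates. They held 103 peaks for 3A, 88 for 7A and 2149 for wild type. There are no values per replicate and the read depth is unknown, so no value below has an error, and no background from cells without doxycycline was analysed here. The lists give no expression levels, so the cell type could not be checked. Of 6 osteoblast-lineage marker genes, SPARC had a 7A peak, and none had a 3A or a wild-type peak.

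MYC is a transcription factor that, paired with MAX, binds DNA at the E-box, and its contact with RNA is a separate property. The 6 genes have unlike roles. TOM1 is an adaptor that sorts ubiquitin-tagged cargo at endosomes, PIAS4 is a ligase that attaches the small modifier SUMO to proteins, and DCLK2 is a kinase that binds microtubules. PHB2 is a prohibitin, a scaffold protein of the mitochondrial inner membrane, CALM2 is one of the genes that encode the calcium sensor calmodulin, and ZNF316 encodes a zinc finger protein.

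The promoters of TOM1 and PIAS4 hold an E-box, and their sequences are shown because the RNA peaks of both genes lay far from them. A short stretch at PHB2 is shown because its wild-type peak reaches into the promoter window. The sequences are those of RefSeq on GRCh38.p14, 5′ to 3′ on the strand of the gene. Capitals mark the E-box, with the letters CACGTG, in the sequences of TOM1 (chromosome 22, 35299795 to 35299893) and PIAS4 (chromosome 19, 4007649 to 4007735). In that of PHB2 (chromosome 12, 6970615 to 6970644, minus strand) they mark the 16 bases under the wild-type peak.
TOM1: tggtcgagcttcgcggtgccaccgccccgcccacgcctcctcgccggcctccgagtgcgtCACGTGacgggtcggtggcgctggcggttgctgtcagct
PIAS4: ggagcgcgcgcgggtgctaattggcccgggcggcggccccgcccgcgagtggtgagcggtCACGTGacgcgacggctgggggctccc
PHB2: ccgaaccctcgtgtGAAGGGTGCAGTACCT

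The promoter table covered 5 of the 6 genes, with 7 windows that run from 250 bases before to 50 after a start of transcription. CALM2 was not among them. The letters CACGTG, which read the same on both strands, occurred in 1 window each of TOM1 and PIAS4, 39 and 27 bases before the start. Of the 27305 genes in that table, 8.77% had these letters in a window, and of the 1231 genes that also held a wild-type peak, 16.1%. The nearest peak summit of any allele lay 42.7 kb from the E-box in TOM1 and 27.7 kb from it in PIAS4. No peak of any allele lay in the windows of TOM1, PIAS4, DCLK2 or ZNF316, and at PHB2 the wild-type peak covered 16 bases of 1 window while the mutant peaks covered none. The E-box letters are a description of the DNA and do not show that MYC binds there.

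The 6 genes held 7 peaks in the 3A list, 9 in the 7A list and 9 in the wild-type list. Among the 20046 protein-coding genes, 0.359% had a 3A peak, 0.269% a 7A peak and 6.78% a wild-type peak, and 0.0948% had a peak in all 3 lists. In the 6 genes every 3A peak shared bases with a wild-type peak, as did 8 of 9 peaks of 7A. The exception was a 7A peak in PIAS4. In the other direction, 7 of the 9 wild-type peaks were met by peaks of both mutants. The wild-type peaks that were not were the first of DCLK2, met by 7A alone, and the second of CALM2, met by neither. All 21 peaks in the 5 genes whose strand the tables give lay on that strand, and no other annotated gene lay under any of the 25 peaks. The percentages above come from the same peaks that chose the genes, so nothing is read from the count of 6 against them. A gene entered or missed a list by the authors' cutoff: the lowest −log10 q was 2.34 in the 3A list, 2.90 in the 7A list and 2.04 in the wild-type list, and the lowest within the 6 genes was 17.0 for 3A, 6.81 for 7A and 8.30 for wild type.

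**Figure D1:**
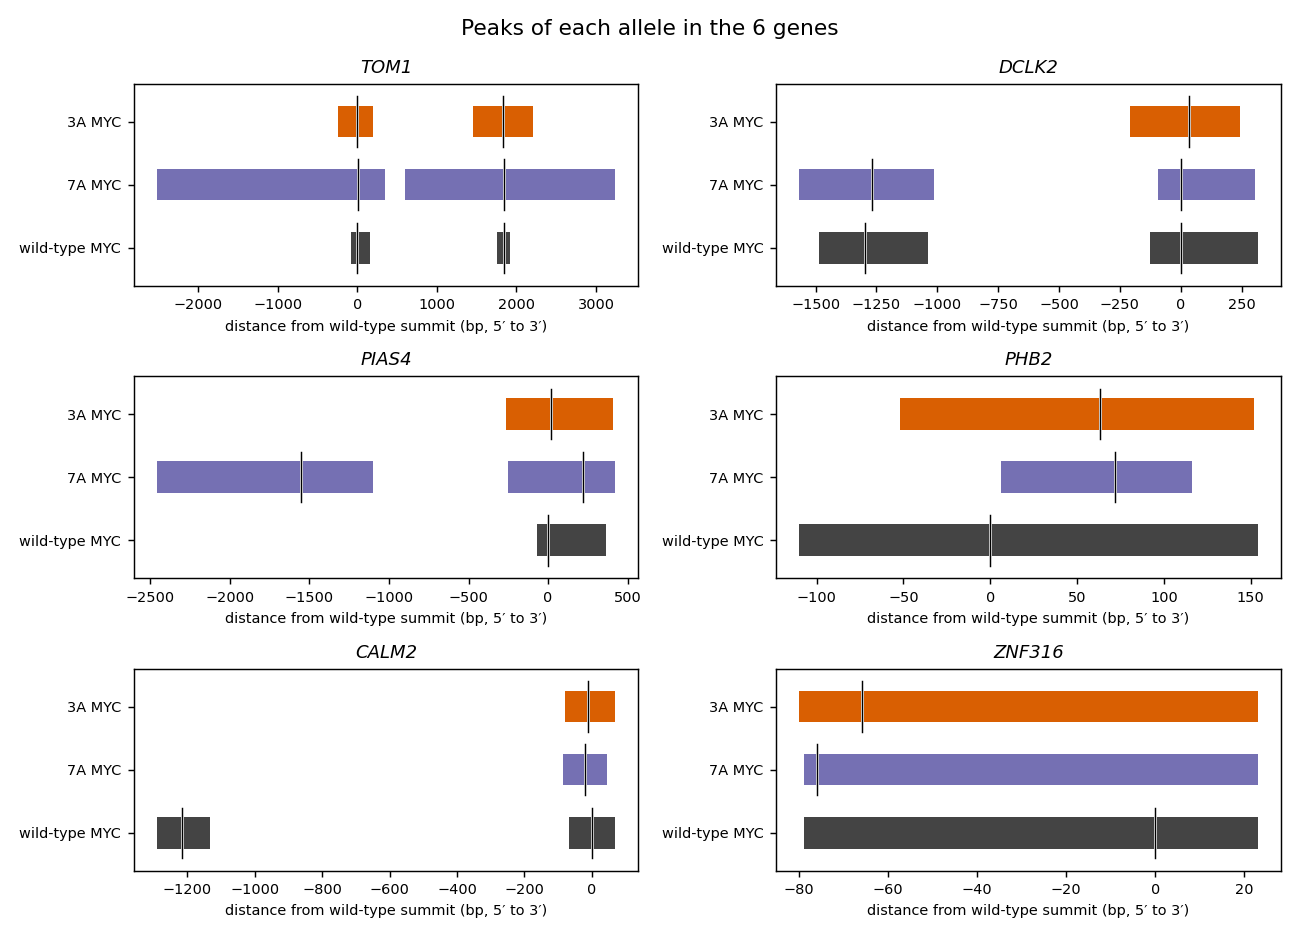
Peaks of 3A, 7A and wild-type MYC in each gene (bars, with a line at the summit) by distance in bp from the summit of a wild-type peak that both mutants met, 5′ to 3′. In TOM1 the 7A bars of 2872 and 2637 bp run far past the wild-type bars of 243 and 166 bp, while in ZNF316 the bars of all alleles share their end and start within 1 bp of each other.

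TOM1 had a pair of peaks in every list, and at both places the summits of the alleles nearly coincided. The gene lies on chromosome 22 from 35299275 to 35347973. The first 3A peak ran from 35342291 to 35342740, the first 7A peak from 35340018 to 35342889 and the first wild-type peak from 35342457 to 35342699. Their summits at 35342538, 35342541 and 35342538 lay within 3 bp. The second 3A peak ran from 35343990 to 35344748, the second 7A peak from 35343140 to 35345776 and the second wild-type peak from 35344288 to 35344453, with summits within 17 bp. At each place the wild-type peak lay inside the 3A peak, and the 3A peak inside the 7A peak.

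The TOM1 peaks of 7A MYC were the widest and the second widest of the whole 7A list. At the first place the width was 450 bp for 3A, 2872 bp for 7A and 243 bp for wild type, which is 1.85 times the wild-type width for 3A and 11.8 times for 7A. At the second place it was 759 bp for 3A, 2637 bp for 7A and 166 bp for wild type, or 4.57 and 15.9 times the wild-type width. The 2 7A peaks were 250 bp apart and spanned 5759 bp. Peaks covered 2.48% of the gene's span for 3A, 11.3% for 7A and 0.840% for wild type. The reads under these peaks were not analysed here, so whether the wide 7A peaks come from spliced RNA, unspliced RNA or DNA was not tested, and their widths and coverage describe the authors' peak calls rather than a measured length of bound RNA. The microRNA genes MIR3909 and MIR6069 lie inside TOM1 but end 4259 and 3218 bp before the first 7A peak, and no peak touched them.

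Within their own lists the TOM1 peaks also stood at different heights. Fold enrichment is the authors' ratio of a peak over a background that the sources used here do not name, so it is ranked only inside a list. The first TOM1 peak had a fold enrichment of 11.7 in 3A (rank 21 of 103), of 30.02 in 7A (rank 2 of 88) and of 8.56 in wild type (rank 990 of 2149). The second had 9.35 in 3A (rank 30), 13.6 in 7A (rank 26) and 5.21 in wild type (rank 1720). The first 7A peak was second by −log10 q as well, at 170. In the wild-type list the −log10 q of the pair was 23.9 and 17.4, against a list median of 17.8. Ranks in lists of such different length place a peak among its neighbours and do not measure a change in binding.

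PIAS4 shared 1 place among the alleles, and 7A MYC had a further peak upstream of it. The gene lies on chromosome 19 from 4007736 to 4039386. The shared place was covered from 4036745 to 4037414 in 3A, from 4036754 to 4037427 in 7A and from 4036939 to 4037370 in wild type. The mutant peaks, of 670 bp for 3A and 674 bp for 7A, had nearly the same edges, and both contained the wild-type peak of 432 bp. The 7A summit lay 203 bp from the 3A summit and 219 bp from the wild-type summit, whereas the 3A and wild-type summits were 16 bp apart.

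The further 7A peak of PIAS4 ran from 4034548 to 4035904, a width of 1357 bp, and ended 849 bp before the shared one. No peak of 3A or wild type met it. With a fold enrichment of 19.3 it ranked 12th of 88, above the shared 7A peak (16.6, rank 17). The shared place had 11.4 in 3A (rank 24 of 103) and 6.87 in wild type (rank 1348 of 2149). The wild-type peak had the lowest −log10 q of all wild-type peaks in the 6 genes, 8.30.

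DCLK2 had the most even peaks of the wide ones. The gene lies on chromosome 4 from 150078445 to 150257438 and is the longest of the 6, at 178994 bp. Its shared place was covered from 150251644 to 150252096 in 3A, from 150251758 to 150252156 in 7A and from 150251725 to 150252167 in wild type. The widths there were 453 bp for 3A, 399 bp for 7A and 443 bp for wild type, and the 3 summits lay within 36 bp. The 7A summit was 1 bp from the wild-type summit. This place ranked high in each list, with a fold enrichment of 19.2 in 3A (rank 6 of 103), 18.5 in 7A (rank 13 of 88) and 20.3 in wild type (rank 84 of 2149).

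A second place in DCLK2 lay upstream, with a 7A peak of 552 bp and a wild-type peak of 447 bp whose summits were 31 bp apart. The 3A list had no peak there. Its fold enrichment was 5.66 in 7A (rank 65 of 88) and 13.7 in wild type (rank 332 of 2149). The −log10 q of the 7A peak, 6.81, was the lowest of all mutant peaks in the 6 genes. Whether 3A reads lay there below the authors' cutoff is unknown.

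PHB2 showed the opposite order of widths, with the widest peak in wild type. The gene lies on chromosome 12 from 6965327 to 6970753. Its 3A peak ran from 6970369 to 6970572 (204 bp), its 7A peak from 6970405 to 6970514 (110 bp) and its wild-type peak from 6970367 to 6970630 (264 bp), all on the minus strand. The 7A peak lay inside the 3A peak, and the 3A peak inside the wild-type peak. Nearly all of the bases that the wild-type peak had beyond the 3A peak lay toward the start of the gene. The wild-type summit at 6970520 lay inside the 3A peak and just outside the 7A peak, 63 bp from the 3A summit and 72 bp from the 7A summit. The mutant summits were 9 bp apart.

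The wild-type PHB2 peak was among the highest of its list. Its fold enrichment of 30.9 ranked 11th of 2149, with a −log10 q of 78.2. The 3A peak had 11.8 (rank 20 of 103) and the 7A peak 8.45 (rank 52 of 88). Near the start of PHB2 the neighbouring gene EMG1 begins, at 6970913, which is 283 bp from the end of the wild-type peak. SCARNA12, a small RNA gene inside PHB2 from 6967337 to 6967606, held no peak of any allele.

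CALM2 had narrow peaks with nearly equal extent at 1 place. The gene lies on chromosome 2 from 47160082 to 47176936. The place was covered from 47160485 to 47160632 in 3A, from 47160509 to 47160640 in 7A and from 47160485 to 47160622 in wild type, with widths of 148 bp for 3A, 132 bp for 7A and 138 bp for wild type. The 3 summits lay within 19 bp. The fold enrichment was 10.4 in 3A (rank 27 of 103), 10.1 in 7A (rank 42 of 88) and 11.2 in wild type (rank 570 of 2149).

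Wild-type MYC had a further CALM2 peak from 47161688 to 47161844, which no mutant peak met. It was the higher of the 2 in wild type, with a fold enrichment of 17.7 (rank 157). Its summit lay 1215 bp from that of the shared peak. The annotation has 4 pseudogenes of CALM2 and 1 of PHB2, and none of them held a peak in any list. How reads that match a gene and its copy were placed is not given in the sources used here, so the CALM2 and PHB2 values are uncertain to that extent.

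ZNF316 had the same narrow interval in every list. The gene lies on chromosome 7 from 6637318 to 6658279. The peak ran from 6653489 to 6653591 in 3A (103 bp) and from 6653490 to 6653591 in 7A and in wild type (102 bp each). These are close to the narrowest peaks of the lists, 100 bp. Although the edges coincided, the summits did not: they lay at 6653503 in 3A, 6653493 in 7A and 6653569 in wild type, so the wild-type summit was 66 bp from that of 3A and 76 bp from that of 7A. Peaks of at most 110 bp made up 14.6% of the 3A list, 20.5% of the 7A list and 10.9% of the wild-type list.

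The ZNF316 peaks ranked much higher by −log10 q than by fold enrichment. The fold enrichment was 4.43 in 3A (rank 67 of 103), 3.39 in 7A (rank 80 of 88) and 12.8 in wild type (rank 412 of 2149). By −log10 q the same peaks stood at rank 23 in 3A (63.4), rank 29 in 7A (32.7) and rank 40 in wild type (116). ZNF316 was the gene with the lowest fold enrichment of the 6 in both mutant lists.

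**Figure D2:**
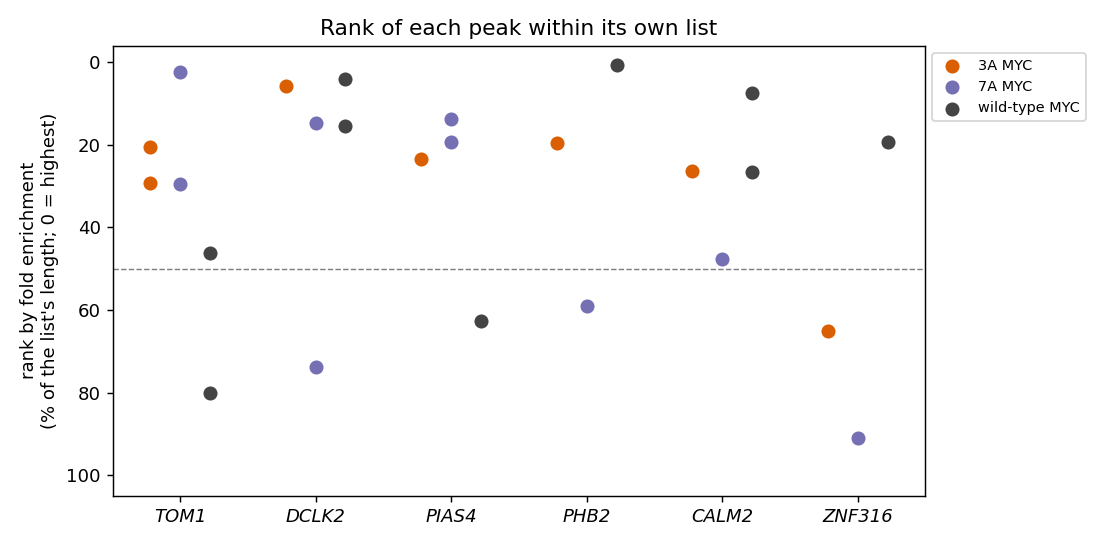
Rank of each peak by fold enrichment as a percent of the length of its own list (vertical axis, 0 is the highest), for 3A, 7A and wild-type MYC in each gene. The dashed line is the middle of a list: 6 of 7 3A points, 6 of 9 7A points and 7 of 9 wild-type points lie above it.

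Set side by side, the widths followed different orders among the genes. At 21 wild-type peaks a peak of both mutants was met, 7 in the 6 genes and 14 elsewhere. At 3 of the 7, the pair in TOM1 and the 1 in PIAS4, 7A was wider than 3A and 3A wider than wild type. None of the 14 other places had this order, and in none were both mutant peaks wider than the wild-type peak. The wild-type peak was the widest at 10 of the 14, which included both MYC places, PGK1 and 3 histone genes, and at 1 of the 7, in PHB2. The median width over the 7 places was 450 bp for 3A, 399 bp for 7A and 243 bp for wild type, and over the 14 others it was 186.5 bp for 3A, 141.5 bp for 7A and 316 bp for wild type. No test was made, because widths come from the same peak calls that chose the genes, and the pattern was seen before it was counted.

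**Figure D3:**
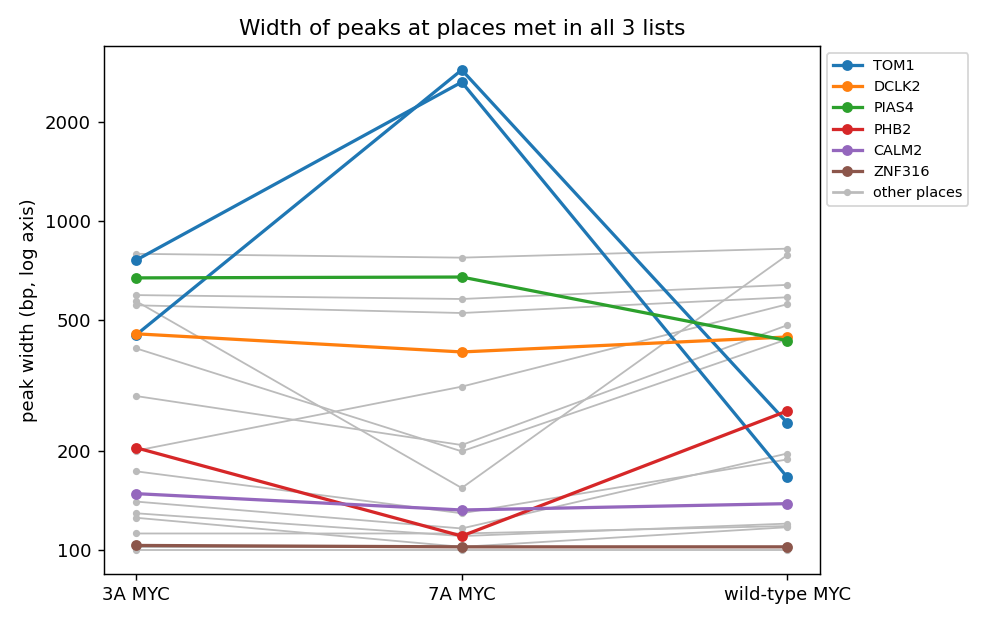
Peak width in bp (log axis) for 3A, 7A and wild-type MYC at the 21 places met in all lists, with coloured lines for the 6 genes and grey lines for the 14 other places. The TOM1 lines peak at 7A with 2872 and 2637 bp, PHB2 is widest in wild type with 264 bp, and ZNF316 is flat at 102 to 103 bp.

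Wide peaks were common in these genes in every list. Among peaks wider than 400 bp were 4 of 7 for 3A, 5 of 9 for 7A and 3 of 9 for wild type, and all of them lay in TOM1, DCLK2 or PIAS4. The share in the whole lists was 16.5% for 3A, 29.5% for 7A and 5.86% for wild type. In wild type the 3 were the DCLK2 pair and the PIAS4 peak, since both TOM1 peaks were narrower.

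The peaks lay mostly toward the 3′ end of the genes. By the strand of the peak, 5 of 7 3A summits, 7 of 9 7A summits and 7 of 9 wild-type summits fell in the last 20% of the gene's length. Over all summits in protein-coding genes the share there was 27.7% for 3A, 40.6% for 7A and 21.4% for wild type. TOM1, DCLK2, PIAS4 and CALM2 made up this group, with summits from 87.6% to 97.2% of the gene's length. ZNF316 stood just short of it, at 77.2% for 3A and for 7A and 77.5% for wild type. PHB2 alone of the 6 had its peaks at the start, with summits 296 bp inside the annotated span for 3A, 305 bp for 7A and 233 bp for wild type. A second start of PHB2 in the promoter table, at 6970664, lies nearer to them. The tables give spans only, so whether a peak lies in an exon, an intron or an untranslated region was not analysed here.

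**Figure D4:**
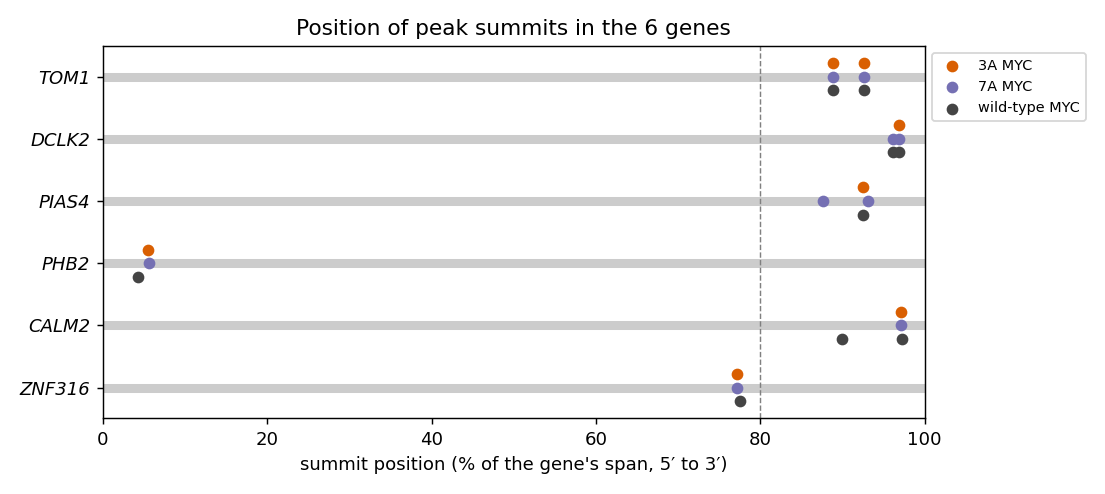
Position of each peak summit as a percent of the gene's span, 5′ to 3′, for 3A, 7A and wild-type MYC, with a dashed line where the last 20% begins. TOM1, DCLK2, PIAS4 and CALM2 lie beyond the line, ZNF316 just before it and PHB2 near the start.

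Relatives and partners of the 6 genes had peaks mainly in the wild-type list, which is by far the longest. Over all protein-coding genes 6.78% had a wild-type peak, 0.359% a 3A peak and 0.269% a 7A peak, so this order is not particular to the relatives. In each related gene list the member named above was the only gene with a 3A or a 7A peak. Each related list holds 1 of the 6 genes, which was selected for its peaks, so each count includes a gene fixed in advance. The prohibitin list, which also holds proteases and partners of the inner membrane, had a wild-type peak in 8 of 9 genes, against 6.78% of protein-coding genes. PHB2 is among the 8 and the list was drawn up around it, so the share is a description and was not tested. Besides PHB2 (30.9) these included STOML2, a scaffold protein of that membrane, at 15.2, the ion exchanger gene LETM1 at 14.4, YME1L1, a protease, at 10.6, the fusion GTPase gene OPA1 at 9.33, AFG3L2, another protease, at 7.14, and PHB1, the partner of PHB2 in the prohibitin ring, at 5.98. OMA1 had none. These values are the highest fold enrichment in the gene.

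In the calmodulin list, wild-type peaks reached a fold enrichment of 17.7 in CALM2, 4.06 in PPP3R1, the regulatory subunit of the phosphatase calcineurin, and 3.89 in CALM3, which encodes the same protein as CALM2. In the SUMO list 4 of 20 genes had a wild-type peak: RANBP2, a ligase at the nuclear pore (14.1), the protease gene SENP3 (11.6), UBA2, a subunit of the SUMO-activating enzyme (9.33), and PIAS4. PIAS1, PIAS2 and PIAS3 had none. The share of the SUMO list with a wild-type peak was 20.0%, against 6.78% of protein-coding genes. It counts PIAS4, which was selected for its peaks.

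In the lists drawn up around TOM1 and DCLK2 no other gene had a peak. Of 12 endosomal sorting genes TOM1 was the only one with a wild-type peak, and its relatives TOM1L1 and TOM1L2 and its partner TOLLIP had none. Of 5 doublecortin family genes only DCLK2 had one. TOM1 and DCLK2 were selected for their peaks, and 6.78% of all protein-coding genes had a wild-type peak. In lists this short nothing is read from the lack of further peaks. Among 477 zinc finger genes 6 had a wild-type peak (1.26%, against the 6.78% of protein-coding genes): ZNF598 (12.8), ZNF316 (12.8), ZNF595 (8.70), ZNF496 (8.31), ZNF74 (7.33) and ZNF239 (4.89). Which genes of these lists the cells express was not measured.

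Beyond the genes with a peak in all 3 lists, 49 genes had one in the 3A and wild-type lists without 7A, 9 in the 7A and wild-type lists without 3A, and 6 in both mutant lists without wild type. A further 9 genes had 3A peaks alone, 33 had 7A peaks alone and 1568 had wild-type peaks alone. Of the 15 other genes with peaks in all 3 lists, 12 had a wild-type peak met by both mutants, as all 6 genes described here did.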

How the data were processed

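The data were 3 deposited peak lists in narrowPeak layout. MACS2, cutadapt and BWA with the build hg38 are named in the submitters' processing notes. Versions, settings, control, cutoff and any pooling of replicates: not given in the sources used here. For each peak the authors deposited a fold enrichment (a ratio), a −log10 p, a −log10 q and a summit offset. Each list was assigned to its allele by its peak names and to doxycycline by its file's name. Depth per library is unknown.

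Starts were turned to 1-based positions. Gene spans, without exons or strands, came from RefSeq on GRCh38.p14, the same assembly as hg38. Strands and promoter sequences came from a RefSeq promoter table. Peaks of different lists were matched on the same strand by at least 1 shared bp. No statistical test was made, since there is 1 list per allele. The overlap code was checked on simulated peaks. Python 3.11.15, pandas 2.3.3 and matplotlib 3.10.9 were used.

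The genes, related gene lists and alternatives were chosen with earlier results of these data known. Genes named besides the 6 were those of the related lists with a peak, at most 6 per list by fold enrichment, neighbours of the peaks, and genes of the 21 with a peak in every list where a count turned on them. PHB1, relatives without a peak, the peaks of PFN1 and PKM, and the comparison of widths were added after the values had been seen. Some items are not reported here.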

Additional observations from a re-analysis of the deposited data

How the results depend on the processing

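Of 33 alternative values of 9 counts, 30 stayed within 1.5 times the count given above. Some settings could not change the counts in the 6 genes. A −log10 q of at least 5 lies below their lowest value, 6.81, and none of their peaks lay on the other strand. The 30 also include a fall of the 7A peaks in the 6 genes from 9 to 6, under the limit on fold enrichment described next. When each list was limited to its upper portion, with a fold enrichment no lower than the list's median, 4 genes had a peak in all 3 lists. Of the 6 genes 3 were among them, TOM1, DCLK2 and CALM2, while PIAS4 had no such wild-type peak, PHB2 no such 7A peak and ZNF316 no such mutant peak. This setting keeps fewer peaks by construction. When a shared stretch had to cover 50% of both peaks, 4 of the 7 wild-type peaks were still met by both mutants. The places lost were the pair in TOM1, where the wild-type peaks took up 8.46% and 6.30% of the 7A peaks, and the place in PHB2, where the 7A peak took up 41.7% of the wild-type peak. No paired analysis was possible because the deposited lists carry no replicate numbers, so leaving out a replicate was not possible either. Unknown depth limits every comparison of list length, width and missing peaks.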

Other observations

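A peak in the same gene was not always a peak at the same place. PFN1, the profilin gene, and PKM, the pyruvate kinase gene, had a peak in all 3 lists but no wild-type peak that both mutants met. In PFN1, on chromosome 17, the 3A peak ran from 4948272 to 4948446 (175 bp, fold enrichment 2.24) and met the wild-type peak from 4948243 to 4948483 (241 bp, 6.30). The 7A peak ran from 4945708 to 4945812 (fold enrichment 3.61) and met another wild-type peak, from 4945682 to 4945850 (169 bp, 7.41). In PKM, too, the mutants met different peaks among the 12 of wild type.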
